A study of Mus musculus with 11 samples.

Results

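The 37 genes described here encode the proteins that build the autophagosome, and they were followed in the inguinal mammary gland of mice with and without a deletion of Tsc1 in adipocytes. They were taken as a fixed list of names covering each step of the pathway, from the initiating kinase to the cargo receptors. They were 37 of the 22196 genes to which the deposited transcripts could be assigned. All 37 passed the filter on low counts that left 12716 genes for testing. Both groups carried floxed Tsc1 alleles (Tsc1-fl/fl). The 6 Knockout samples also carried the Cre transgene driven by the adiponectin gene (Adipoq-Cre-Tg/+), and the 5 Wild-Type samples did not (Adipoq-Cre-+/+). The animals were on normal chow, the age label read PND16.5, and the glands were taken 16 days after delivery. Adipoq-Cre is meant to act in adipocytes and to leave the floxed alleles of the other cells of the gland in place, which was not measured here. The libraries were made from whole tissue. The labels name no litter, batch or pooling, and p-values measure the spread between these samples.

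Autophagy encloses cytoplasm in a double membrane and delivers it to the lysosome. The kinase ULK1, in complex with ATG13, FIP200 and ATG101, starts the process and is held back by mTORC1, the growth kinase complex that TSC1 and TSC2 restrain. A lipid kinase complex around VPS34 and Beclin 1 then marks the membrane, ATG9 and ATG2 supply lipid, and a pair of ubiquitin-like conjugation systems attach the LC3 and GABARAP proteins to the growing membrane, where they bind cargo receptors such as p62. In the mammary gland autophagy is best known from involution, when the milk-secreting epithelium is removed after weaning. mTORC1 also keeps TFEB and TFE3 out of the nucleus. These transcription factors bind the CLEAR element, an extended E-box found in front of many lysosomal and autophagy genes. The transcript level of an autophagy gene is not a measure of autophagic flux.

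Promoter sequences of the members are shown first because TFEB and TFE3 act through such elements. RefSeq start sites on GRCm38.p6, each with 250 bases before and 50 after the start, gave 34 windows for 31 of the 37 members. Rb1cc1, Atg12, Atg16l1, Map1lc3a, Becn1 and Pik3c3 had no window. Both strands were searched for 3 motifs. The palindromic CLEAR core TCACGTGA was in the window of 1 member, Atg3, and in 0.974% of 32851 windows of all genes. The E-box CACGTG, which lies inside the CLEAR core, was in the windows of 4 members (Atg3, Atg5, Atg7 and Atg14) and in 7.15% of all windows. The forkhead motif GTAAACA was in 0 of the 34 windows and in 3.65% of all windows. A match is a run of letters and not a measured binding site. The stretches around the matches upstream of the start of Atg3, Atg5 and Atg7 follow on the plus strand of GRCm38.p6, with the CLEAR core of Atg3 and the E-box of the others in capitals.
Atg3, chr16:45158712-45158784: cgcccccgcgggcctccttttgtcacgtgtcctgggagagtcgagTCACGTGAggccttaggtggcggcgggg
Atg5, chr10:44268280-44268338: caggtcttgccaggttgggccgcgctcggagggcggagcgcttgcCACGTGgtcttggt
Atg7, chr6:114670919-114670989: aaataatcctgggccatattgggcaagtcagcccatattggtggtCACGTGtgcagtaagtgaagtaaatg
The match begins 72 bases before the start site in Atg3, 14 bases before it in Atg5 and 132 bases before it in Atg7. A further E-box stands in lower case upstream of the CLEAR core of Atg3, beginning 94 bases before the start. The match of Atg14 reaches past its start site and is not shown. The windows of Atg3 and Atg7 belong to RefSeq start sites inside the genes as GENCODE M21 draws them. The CLEAR core of Atg3 also lies before the GENCODE start, and closer to it than to the RefSeq start. The levels of these genes are given below with their groups.

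Depth ran from 25817975 to 37894237 estimated reads per library. The defining genes of milk-secreting cells (9 genes, such as Csn2 and Wap) took 48.5% to 56.6% of the reads in Knockout and 54.2% to 59.9% in Wild-Type libraries, so that the tissue carried the transcripts of a lactating gland. The 37 autophagy genes together took 0.0995% to 0.137% of the reads. All 10 adipocyte markers were detected in every library, and their summed level lay between 1454 and 1941 CPM (read counts over the TMM-adjusted library total) across the Knockout and between 1047 and 1483 CPM across the Wild-Type libraries. In whole tissue, fewer cells of a type and less RNA per cell cannot be told apart. The 6 skeletal muscle markers summed to between 2.496 and 2020.0 CPM across the Knockout and between 1.602 and 171 CPM across the Wild-Type libraries, with the highest sum in Knockout 1 and with Myh4 and Tnnt3 at 0 in at least 1 library. Tsc1 itself had 8.31, 11.9, 9.05, 10.2, 10.1 and 11.2 CPM in Knockout 1 to 6 and 12.2, 9.77, 10.7, 11.5 and 9.55 CPM in Wild-Type 1 to 5. These ranges overlapped, and its log2 fold change was -0.09 ± 0.11 SE (adjusted p = 0.772 in edgeR). Tsc1 counts are summed over the gene and over all cells, so that they do not check the deletion in adipocytes.

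None of the 37 autophagy genes differed between the genotypes past the threshold (adjusted p of 0.05 in edgeR's quasi-likelihood test, adjusted over the 12716 genes). The lowest adjusted p among them was 0.316. Of all genes tested 0.055% passed (0.0472% higher and 0.00786% lower in Knockout), so that a count of 0 is no result particular to these genes. At an unadjusted p of 0.05, 1 member was higher (Wipi1) and 1 lower (Atg4d) in Knockout, while 6.31% of all genes were higher and 6.08% lower at that level. DESeq2 called 0 of the 37 as well and 1.09% of the genes it tested, with 2 members at an unadjusted p under 0.05. Of the 37 estimates 12 were above 0 and 25 below, and of all 12716 genes 6146 were above and 6570 below. The median log2 fold change of the members was -0.05 beside -0.01 for all genes. The estimates ran from -0.31 (Atg10) to 0.23 (Wipi1). With scaling to library totals alone, which raised the median of all genes by 0.19, 36 of the 37 estimates were above 0 and 1 below. The directions given here therefore depend on the TMM scaling. In the main fit 24 of the 37 members lay below the median of all genes.

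For most of the pathway the data limited the size of a difference closely in RNA of the whole tissue. The data do not bound a difference within the adipocytes alone. The 95% interval of the fold change lay within 1.5-fold in either direction for 35 of the 37 genes, and for 8109 of all 12716. Atg9b and Atg10, the members with the lowest counts, were the exceptions. The median biological coefficient of variation of the members was 13.9% beside 17.7% for all genes, and the median SD of log2 CPM over the 11 libraries was 0.17 beside 0.24. For the median member 94.95% of the variance of log2 CPM lay between libraries of the same genotype, beside 90.9% for the median gene. Atg4d was the member with the lowest such share, at 36.0%. The CPM of 1 member, Atg4d, did not overlap between the genotypes, while 1.32% of all genes had such values (0.535% lower and 0.786% higher in Knockout).

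**Figure D1:**
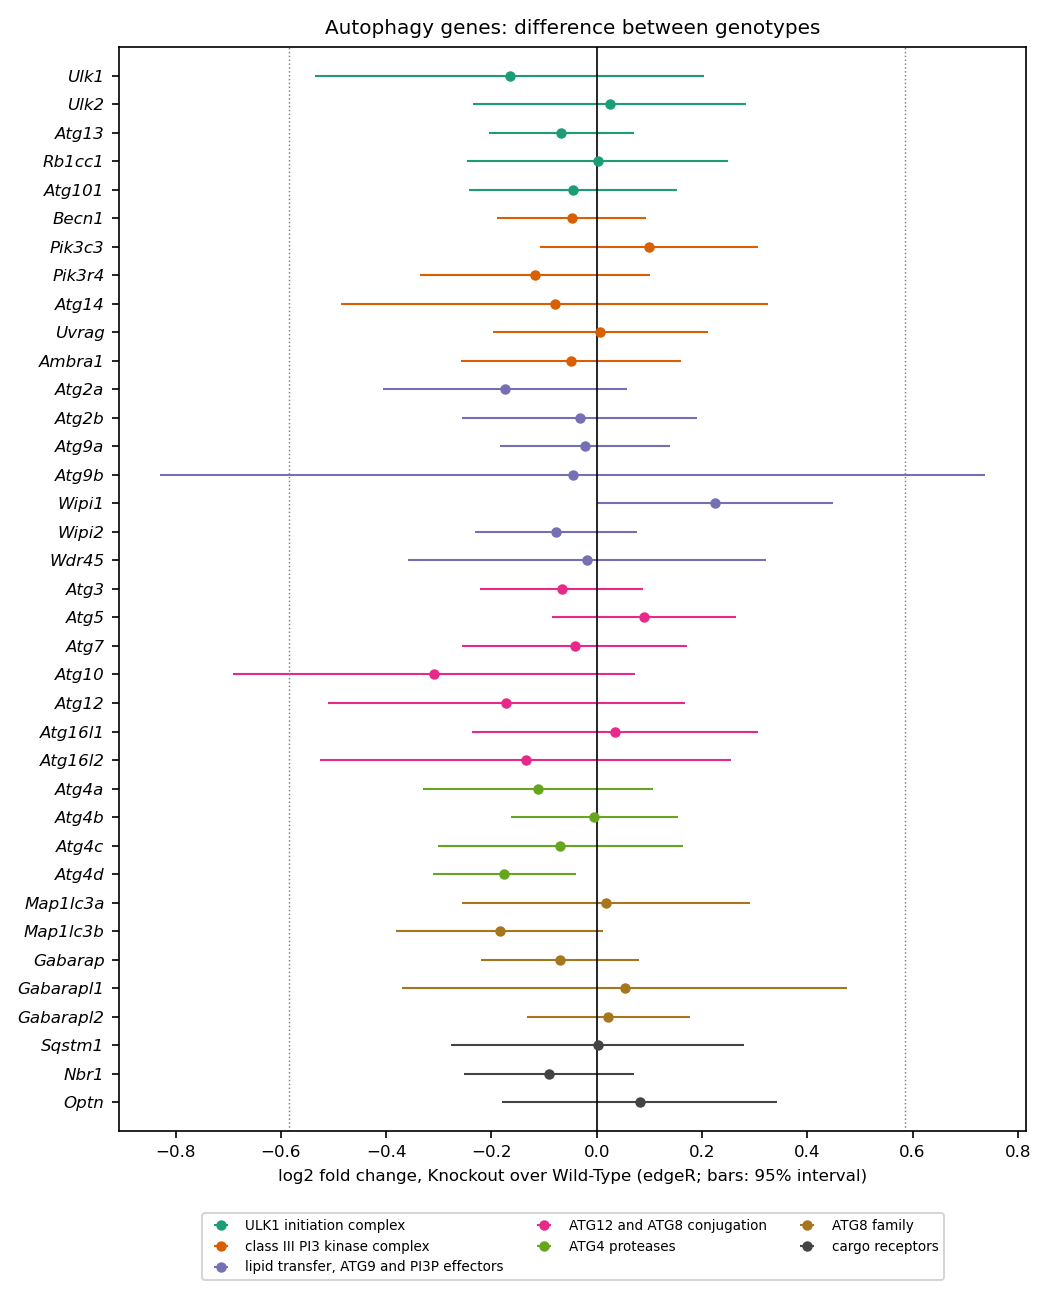
Log2 fold change of each autophagy gene, Knockout over Wild-Type (x axis), with 95% intervals from edgeR (bars) for 6 and 5 libraries, coloured by role; dotted lines mark a 1.5-fold difference. The intervals of Wipi1 and Atg4d do not include 0, and those of Atg9b and Atg10 reach past 1.5-fold.

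The ULK1 initiation complex (Ulk1, Ulk2, Atg13, Rb1cc1 and Atg101) had 0 of 5 genes past the threshold in either direction, with a median log2 fold change of -0.04. Its most abundant transcript per length was Atg101 (ENSMUSG00000037204, chromosome 15, 101284272 to 101290945, GRCm38), which encodes the partner that stabilises ATG13. Atg101 had 13.03, 12.01, 15.5, 12.2, 13.99 and 13.9 CPM in Knockout 1 to 6. In Wild-Type 1 to 5 the values were 16.04, 13.95, 12.5, 12.6 and 14.2 CPM. The ranges overlapped almost completely, and the log2 fold change was -0.04 ± 0.091 SE (adjusted p = 0.8704 in edgeR). Ulk1, the kinase that mTORC1 phosphorylates, lay between 32.9 and 61.9 CPM across the Knockout and between 38.05 and 57.4 CPM across the Wild-Type libraries. Ulk1 had a difference of -0.17 ± 0.17 SE (adjusted p = 0.723 in edgeR) in log2, with a 95% interval of -0.53 to 0.20. Without Knockout 2, its highest library, the estimate for Ulk1 was -0.29, and without Wild-Type 5 it was -0.25. Without Knockout 1, Wild-Type 1 or Knockout 5 it was closer to 0, between -0.10 and -0.095. Its relative Ulk2 (0.02), the scaffold gene Atg13 (-0.07) and Rb1cc1 (0.0016), which encodes FIP200, had log2 fold changes closer to 0. Allowing for transcript lengths turned the estimate of Atg101 to 0.06 and that of Rb1cc1 to -0.16, neither past the threshold. Atg13 was among the steadiest members, lying between 15.2 and 18.01 CPM across the Knockout and between 16.6 and 17.6 CPM across the Wild-Type libraries.

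In the class III PI3 kinase complex, which makes the lipid PI3P on the forming membrane, 0 of 6 genes passed the threshold and the median log2 fold change was -0.05. Becn1 (ENSMUSG00000035086, chromosome 11, 101285952 to 101302286) encodes Beclin 1, the regulatory subunit, and was the most abundant of them per length. It had 36.6, 35.9, 37.4, 34.6, 38.1 and 36.7 CPM in Knockout 1 to 6 and 36.98, 41.4, 36.1, 34.2 and 40.4 CPM in Wild-Type 1 to 5. The highest 2 libraries were Wild-Type 2 and Wild-Type 5, the other 9 lay close together, and the log2 fold change was -0.05 ± 0.065 SE (adjusted p = 0.8 in edgeR). Pik3c3 (ENSMUSG00000033628, chromosome 18, 30272747 to 30348126) encodes the catalytic subunit VPS34 and had the largest estimate above 0 in this complex. Its values were 17.2, 23.4, 19.6, 21.8, 16.7 and 21.5 CPM in Knockout 1 to 6. The Wild-Type libraries 1 to 5 gave 19.8, 18.04, 17.03, 19.6 and 18.99 CPM. Knockout 2, 4 and 6 stood above every Wild-Type library and Knockout 5 below every one, and the log2 fold change was 0.10 ± 0.096 SE (adjusted p = 0.704 in edgeR). Without Knockout 2 it was 0.05, and without Knockout 5 it was 0.15. Pik3r4, the gene of the scaffold VPS15, had an estimate of -0.12, and -0.045 without Knockout 2, its lowest library. For Atg14, whose product directs the complex to autophagosome formation, it was -0.08, and for Uvrag, whose product stands in for ATG14 in the endosomal form, it was 0.0069. Ambra1, a Beclin 1 regulator, had an estimate of -0.05.

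Among the 7 genes of lipid supply and PI3P reading, 0 passed the threshold, 6 estimates were below 0 and 1 was above. The one above was Wipi1 (ENSMUSG00000041895, chromosome 11, 109573331 to 109611967), which encodes a beta-propeller protein that binds PI3P on the forming membrane. Wipi1 had 58.6, 80.9, 75.97, 62.3, 56.7 and 75 CPM in Knockout 1 to 6 and 60.1, 52.2, 61.5, 62.3 and 55.8 CPM in Wild-Type 1 to 5. Knockout 2, 3 and 6 stood well above every Wild-Type library. Knockout 4 (62.27 CPM) was level with Wild-Type 4 (62.26 CPM), the highest of these, and Knockout 1 and 5 lay inside the Wild-Type range. The means were 68.2 CPM ± 10.3 (SD, n = 6) and 58.4 CPM ± 4.26 (SD, n = 5). The log2 fold change was 0.23 ± 0.10 SE (adjusted p = 0.402 in edgeR), with an unadjusted p of 0.0487 and a 95% interval of 0.0015 to 0.45, the largest estimate among the 37 members and not past the threshold. Wipi2, which recruits ATG16L1 to the membrane, had an estimate of -0.08. Wdr45, which encodes WIPI4, had one of -0.02, which turned to 0.08 when transcript lengths were allowed for. The lipid transfer proteins ATG2A and ATG2B had estimates of -0.17 and -0.03 for their genes. Atg9a, the gene of the lipid scramblase on ATG9 vesicles, lay between 41.4 and 50.4 CPM across the Knockout and between 42.3 and 51.1 CPM across the Wild-Type libraries, with an estimate of -0.02. Allowing for transcript lengths moved the Atg9a estimate to -0.30 (edgeR adjusted p = 0.660). Atg9b had 24 to 68 reads per library, and its 95% interval reached from -0.83 to 0.74.

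The conjugation genes encode the enzymes that join ATG12 to ATG5 and LC3 or GABARAP to lipid. Of these 7 genes 0 passed the threshold, and 5 estimates were below 0. Atg3 (ENSMUSG00000022663, chromosome 16, 45158785 to 45188538), the E2 enzyme for the LC3 and GABARAP proteins and the carrier of the CLEAR core shown above, had 32.7, 35.4, 38.8, 38.8, 34.5 and 39.2 CPM in Knockout 1 to 6 and 39.9, 38.8, 40.4, 34.3 and 38.05 CPM in Wild-Type 1 to 5. All 11 libraries were within 1.24-fold of each other, and the log2 fold change was -0.07 ± 0.071 SE (adjusted p = 0.739 in edgeR). Atg5 (ENSMUSG00000038160, chromosome 10, 44268358 to 44364291), whose product is joined to ATG12, had the largest estimate above 0 of the group. Its CPM was 10.6, 10.98, 13.1, 12.9, 12.04 and 11.7 in Knockout 1 to 6. It was 12.5, 11.1, 10.8, 10.4 and 10.99 in Wild-Type 1 to 5. Knockout 3 and 4 exceeded every Wild-Type library and Knockout 1 lay near the lowest, with a log2 fold change of 0.09 ± 0.081 SE (adjusted p = 0.677 in edgeR). Without Wild-Type 1 the estimate was 0.14, and without Knockout 3 it was 0.06. Atg10 (ENSMUSG00000021619, chromosome 13, 90935356 to 91223968), the E2 enzyme for ATG12, had the lowest estimate of all 37 members, on 25 to 60 reads per library. It had 1.33, 0.853, 1.26, 1.47, 1.58 and 1.3 CPM in Knockout 1 to 6 and 1.401, 1.796, 1.82, 1.34 and 1.68 CPM in Wild-Type 1 to 5. Knockout 2 was the lowest library, and 4 of the 6 Knockout libraries lay below every Wild-Type library. The log2 fold change of Atg10 was -0.31 ± 0.18 SE (adjusted p = 0.497 in edgeR), with a 95% interval of -0.69 to 0.07. Atg7, the E1 enzyme of both systems, had an estimate of -0.04. Atg12, the ubiquitin-like protein itself, had one of -0.17, and -0.098 without Wild-Type 4. Atg16l1 and Atg16l2, whose products bind the ATG12 and ATG5 conjugate, had estimates of 0.03 and -0.13.

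The 4 ATG4 genes encode the cysteine proteases that trim LC3 and GABARAP before conjugation and release them from lipid afterwards. All 4 estimates were below 0 (median -0.09), and 3 were below the median of all genes, all but Atg4b. Of the 4 genes 0 passed the threshold, and 1 had an unadjusted p under 0.05. That gene was Atg4d (ENSMUSG00000002820, chromosome 9, 21265293 to 21277772). Its CPM in Knockout 1 to 6 was 18.8, 17.6, 18, 19.4, 20.05 and 19.3. In Wild-Type 1 to 5 it was 20.4, 22.1, 22.6, 21.2 and 20.1. The 2 genotypes did not overlap, and the Knockout values were the lower ones, with Knockout 5 and Wild-Type 5 next to each other at the boundary. The means were 18.9 CPM ± 0.924 (SD, n = 6) and 21.3 CPM ± 1.09 (SD, n = 5). The log2 fold change was -0.18 ± 0.063 SE (adjusted p = 0.316 in edgeR), the unadjusted p 0.0157 and the 95% interval -0.31 to -0.04. Allowing for transcript lengths moved this estimate to -0.28 (edgeR adjusted p = 0.329). The average effective length of Atg4d transcripts was 1138 bases in Knockout and 1059 bases in Wild-Type libraries. Wild-Type 5 had the lowest value, 880.5 bases, and without it the Wild-Type mean was 1103 bases. Atg4b (ENSMUSG00000026280, chromosome 1, 93751500 to 93790610), the protease with the broadest activity, was the most abundant per length over all 11 libraries, at 6.91 TPM ± 1.1 beside 6.35 TPM ± 0.95 for Atg4d (SD, n = 11 for each), while in the Wild-Type libraries alone Atg4d was slightly higher. It had 16.8, 17.1, 15.2, 18.01, 15.3 and 17.5 CPM in Knockout 1 to 6 and 15.8, 16.7, 17.1, 18.4 and 15.5 CPM in Wild-Type 1 to 5. The genotypes covered nearly the same range, and the log2 fold change was -0.0047 ± 0.073 SE (adjusted p = 0.987 in edgeR). Atg4a and Atg4c had estimates of -0.11 and -0.07. Atg4a is uncertain, because 81.9% of the 31-base words of its coding sequences also occur in the pseudogene Atg4a-ps or in Syt6. The same holds for 42.9% of the words of Wdr45, shared with Gm45208, while the other 35 members shared none with another gene.

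**Figure D2:**
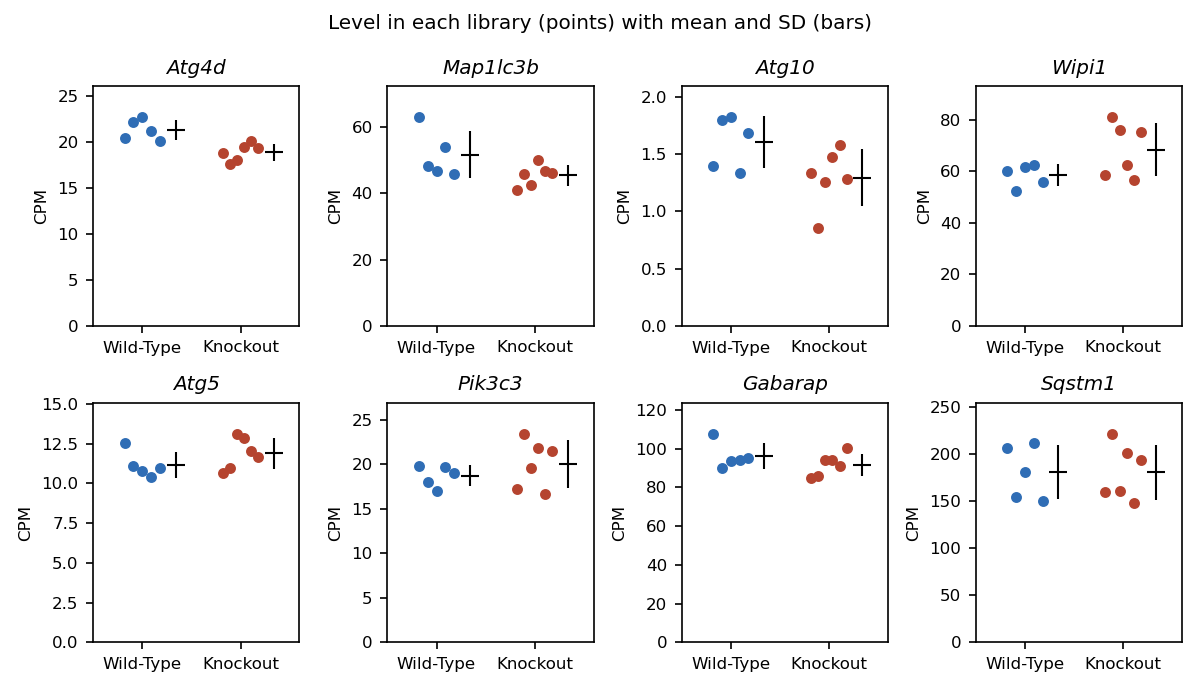
CPM of 8 autophagy genes in each library (points, y axis from 0), with the mean and SD beside each group of 5 Wild-Type and 6 Knockout libraries. The Atg4d points do not overlap, between 17.6 and 20.05 CPM in Knockout and between 20.1 and 22.6 CPM in Wild-Type libraries, and the points of the other 7 genes do.

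The ATG8 family (LC3 and GABARAP proteins) is the part of the machinery that ends up on the membrane. Of its 5 genes 0 passed the threshold, 3 estimates were above 0 and 2 below. Map1lc3b (ENSMUSG00000031812, chromosome 8, 121590361 to 121598760) encodes LC3B, the most used marker of autophagosomes. It had 40.99, 45.8, 42.3, 50, 46.8 and 46.2 CPM in Knockout 1 to 6 and 62.9, 48.3, 46.6, 54.03 and 45.8 CPM in Wild-Type 1 to 5. Wild-Type 1 was the highest library by a clear margin, and Wild-Type 2, 3 and 5 lay inside the Knockout range. The log2 fold change was -0.18 ± 0.091 SE (adjusted p = 0.432 in edgeR), with a 95% interval of -0.38 to 0.01, and without Wild-Type 1 it was -0.10. Gabarap (ENSMUSG00000018567, chromosome 11, 69991143 to 69994951) gave 84.7, 85.9, 94.04, 94.4, 90.98 and 100.1 CPM in Knockout 1 to 6. It gave 108, 90.1, 93.7, 94.2 and 95.4 CPM in Wild-Type 1 to 5. Wild-Type 1 was again the highest, the other libraries overlapped, and the log2 fold change was -0.07 ± 0.069 SE (adjusted p = 0.712 in edgeR). Without Wild-Type 1 it was -0.03. Map1lc3a had an estimate of 0.02, Gabarapl1 of 0.05 and Gabarapl2 of 0.02. Gabarapl2 was one of the steadiest members, lying between 14.2 and 16.9 CPM across the Knockout and between 14.1 and 15.6 CPM across the Wild-Type libraries.

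Of the 3 cargo receptor genes, which encode proteins that tie ubiquitinated cargo to LC3, 0 passed the threshold. Sqstm1 (ENSMUSG00000015837, chromosome 11, 50199366 to 50210827) encodes p62, which is itself degraded by autophagy. It had 159, 221, 161, 201, 148 and 194 CPM in Knockout 1 to 6 and 206, 154, 181, 212 and 149.6 CPM in Wild-Type 1 to 5. Both genotypes held low libraries, such as Knockout 5 and Wild-Type 5, and high ones, such as Knockout 2 and Wild-Type 4. The log2 fold change was 0.0017 ± 0.13 SE (adjusted p = 0.998 in edgeR) with a 95% interval of -0.28 to 0.28. Nbr1, a receptor related to p62, lay between 131 and 155 CPM across the Knockout and between 139.8 and 172 CPM across the Wild-Type libraries, with an estimate of -0.09. Optn, the gene of optineurin, a receptor for mitochondria and bacteria, lay between 10.3 and 14.4 CPM across the Knockout and between 8.81 and 13.4 CPM across the Wild-Type libraries, with an estimate of 0.08.

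The genes around the pathway were read from the same fit, in 4 lists that hold 68 genes, 67 of them tested. At the adjusted threshold 0 of 67 passed in either direction. At an unadjusted p of 0.05 also 0 passed, in edgeR and in DESeq2, while 12.4% of all genes passed at that level in edgeR. Other fits placed up to 6 of the 67 at that level (6 with library totals only, 3 with totals that leave out milk protein genes, 1 with the replicate block and 0 to 2 without 1 library in turn). The adjusted threshold was passed by 0 of them under each of the 21 alternatives, with a lowest adjusted p of 0.163 (edgeR, library totals only). The median log2 fold change of the 67 was -0.03, with 25 estimates above 0 and 42 below, beside 6146 and 6570 for all genes. Of the 20 genes of selective autophagy and mitophagy, Ncoa4, the receptor for ferritin, had the smallest unadjusted p among the estimates above 0. Its CPM was 27.5, 21.8, 20.3, 27, 24.9 and 25.5 in Knockout 1 to 6 and 22.97, 22.6, 21.6, 21.4 and 20.5 in Wild-Type 1 to 5. Knockout 1, 4, 5 and 6 stood above every Wild-Type library, and the log2 fold change was 0.17 ± 0.086 SE (adjusted p = 0.453 in edgeR). Retreg1, a receptor for the endoplasmic reticulum, had the smallest among the estimates below 0, with a log2 fold change of -0.19 ± 0.12 SE (adjusted p = 0.559 in edgeR). Of the 20 genes of closure and lysosome fusion, Wdr45b, which encodes WIPI3, had the smallest unadjusted p among the estimates above 0, with a log2 fold change of 0.12 ± 0.089 SE (adjusted p = 0.592 in edgeR). Tecpr1, a tethering factor on lysosomes, had the smallest among those below 0, at -0.20 ± 0.12 SE (adjusted p = 0.512 in edgeR).

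The transcription factors of autophagy and lysosome genes had 11 of 12 genes tested (Tfec was not). Nfe2l2, which encodes NRF2 and drives Sqstm1 among its targets, had the smallest unadjusted p among the estimates above 0, and its log2 fold change was 0.11 ± 0.092 SE (adjusted p = 0.663 in edgeR). Foxo1, a forkhead factor known to activate autophagy genes, had the smallest among those below 0. Foxo1 stood at 16.2, 13.2, 15.8, 23.2, 22.4 and 25.3 CPM in Knockout 1 to 6 and at 26.1, 18.8, 24.03, 26.5 and 21.1 CPM in Wild-Type 1 to 5. Knockout 1, 2 and 3 were below every Wild-Type library, and the log2 fold change was -0.27 ± 0.17 SE (adjusted p = 0.533 in edgeR). Tfeb and Tfe3, whose products mTORC1 controls by location rather than by transcript level, had estimates of -0.09 and -0.06. Of the 16 genes of mTORC1 and AMPK, Prkab2, a regulatory subunit of AMPK, had 1.27, 0.512, 0.3303, 0.271, 0.404 and 0.569 CPM in Knockout 1 to 6 and 0.455, 0.334, 0.346, 0.213 and 0.351 CPM in Wild-Type 1 to 5. Its log2 fold change was 0.75 ± 0.40 SE (adjusted p = 0.4798 in edgeR), on 7 to 57 reads per library, with Knockout 1 far above the others, and without Knockout 1 it was 0.31 ± 0.30 SE (adjusted p = 0.776 in edgeR). Knockout 1 was also the library with the highest sum of skeletal muscle markers, 2020.0 CPM, and the part of muscle RNA in this value was not tested. Stk11, the gene of the AMPK-activating kinase LKB1, had a log2 fold change of -0.14 ± 0.069 SE (adjusted p = 0.426 in edgeR).

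Levels between genes are compared per length, in TPM (a relative abundance corrected for length and summed over a gene's transcripts). The ATG8 genes and Sqstm1 were the most abundant. Gabarap led at 391 TPM ± 44.2 (SD, n = 11), followed by Map1lc3b at 223 TPM ± 29.3 (SD, n = 11) and Map1lc3a at 124 TPM ± 26.9 (SD, n = 11). In every library Gabarap was above Map1lc3b and Map1lc3b above Map1lc3a. Gabarapl1 (70.3 TPM ± 23.03), Sqstm1 (65.1 TPM ± 14.5) and Gabarapl2 (59.9 TPM ± 8.31, SD, n = 11 for each) came next and did not differ from each other beyond their spread. Atg3, Nbr1, Atg101 and Wipi1 formed the next level, between 22.4 and 24.6 TPM on average. Becn1 stood at 14.5 TPM ± 2.195, Atg5 at 8.71 TPM ± 1.14 and Ulk1 at 5.54 TPM ± 1.43 (SD, n = 11 for each). At the low end were Pik3r4 (1.097 TPM ± 0.178), Atg16l2 (0.765 TPM ± 0.244) and Atg9b (0.181 TPM ± 0.07603, SD, n = 11 for each).

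The scale matters for the ATG8 genes, whose listed transcripts are short. The effective length that the authors' quantifier gave was 83.6 bases for Gabarap and 74.97 bases for Map1lc3b, against listed lengths of 354 and 378 bases of their main transcripts. Per kilobase of listed length, Gabarap still led at 265 CPM per kilobase, but Sqstm1 followed at 137, ahead of Map1lc3b at 127 and Map1lc3a at 94.8. On this scale Nbr1 (49.7) and Wipi1 (48.1) were above Gabarapl2 (43.3) and Gabarapl1 (41.2). The ratio of the highest member to the median member was 70.5 in TPM and 20.004 per kilobase of listed length.

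**Figure D3:**
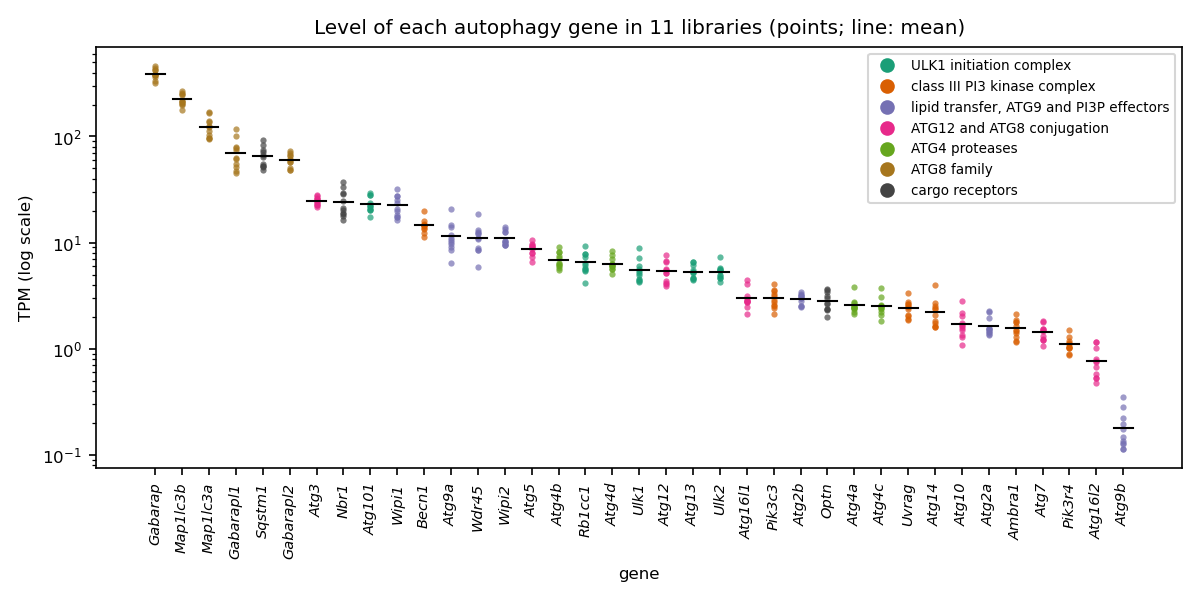
TPM of each autophagy gene (log y axis) in the 11 libraries (points) with the mean (line), ordered by mean and coloured by role. The 5 ATG8 genes and Sqstm1 lie above the rest, from 59.9 to 391 TPM on average, and Atg9b lies lowest at 0.181 TPM.

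The make-up of transcripts was described from the deposited estimates without a test. For 10 members a single transcript was listed, and for 22, these included, the main transcript held 90% or more of the reads. Sqstm1 drew on 4 coding transcripts, the least used of which (Sqstm1-204) held at most 0.432% of its reads, and Sqstm1-202 held 64.7% (range 63.5% to 66.2%) in Knockout and 63.2% (range 59.01% to 65.9%) in Wild-Type libraries. Gabarap-201 held 77.95% (range 76.1% to 79.8%) of the Gabarap reads in Knockout and 75.8% (range 74.6% to 76.3%) in Wild-Type libraries. The 2 ranges overlapped only at their ends. Part of the Rb1cc1 reads were assigned to Rb1cc1-214, a transcript annotated for nonsense-mediated decay, at 23.5% (range 18.5% to 29.3%) and 26.7% (range 24.3% to 31.04%). Atg16l2-201, the longest transcript of Atg16l2, held 48.1% (range 0% to 74.5%) in Knockout and 72.9% (range 62.1% to 84.6%) in Wild-Type libraries. These Atg16l2 shares rest on 67 to 159 reads per library. Atg7-201 held 5.06% (range 0% to 30.4%) and 19.3% (range 0% to 71.7%) of the Atg7 reads, so that the split of this gene's reads between its near-identical transcripts was not stable from library to library.

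Some of the members varied between libraries in a pattern that did not follow genotype. Of the 36 members other than Gabarapl1, 13 (36.1%) had a Pearson correlation above 0.5 with it over the 11 libraries and 13 had one below 0. Of the 12715 other genes tested 13.1% were above 0.5 and 51.8% below 0. The median correlation was 0.27 for the members and -0.02 for all genes, and no test was made of this difference. It was noticed in these data and is given as a description, and the genes named for it were chosen after their values were seen. Gabarapl1 had 12.97, 20.4, 12.9, 15.5, 10.5 and 15.5 CPM in Knockout 1 to 6 and 14.9, 10.9, 14.7, 19.98 and 10.1 CPM in Wild-Type 1 to 5. The highest libraries were Knockout 2 and Wild-Type 4 and the lowest were Wild-Type 5, Knockout 5 and Wild-Type 2. Sqstm1 was ordered almost alike. The Pearson correlation of its log2 CPM with that of Gabarapl1 was 0.94 (Spearman's rho 0.95, n = 11 libraries), and 0.91 over the 9 libraries left without Knockout 5 and Wild-Type 5, the 2 farthest from the median of Gabarapl1. The libraries share 1 scaling factor each, so that genes of 1 library are not measured independently. Wdr45 followed at 0.87 (rho 0.82, r 0.82 without those 2 libraries). The next by Pearson's r were 0.74 (rho 0.69, r 0.63 without those 2 libraries) for Ulk1, 0.71 (rho 0.55, r 0.55 without those 2 libraries) for Rb1cc1 and 0.71 (rho 0.55, r 0.62 without those 2 libraries) for Atg14. These rest in part on the 2 farthest libraries, and by rho Atg4b (0.77), Pik3c3 (0.75) and Wipi1 (0.74) came before all 3. Among the transcription factors Nfe2l2 came first, at 0.77 (rho 0.74, r 0.64 without those 2 libraries).

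Ulk1 showed a partly similar order. It had 32.9, 61.9, 47.9, 38.3, 34.6 and 48.1 CPM in Knockout 1 to 6 and 57.4, 42.2, 52.2, 56.6 and 38.05 CPM in Wild-Type 1 to 5. Knockout 2, Wild-Type 1 and Wild-Type 4 were the highest, and Knockout 1 and 5 the lowest. Atg14 had 5.53, 10.1, 6.804, 5.53, 5.58 and 7.54 CPM in Knockout 1 to 6 and 9.88, 6.01, 6.72, 7.84 and 5.69 CPM in Wild-Type 1 to 5, with Knockout 2 and Wild-Type 1 apart from the rest. Becn1 ran the other way, with a correlation of -0.83 to Gabarapl1, as did the stress-response factor Atf4 (-0.88). Atf4 had 135, 110.2, 155, 116, 151 and 125 CPM in Knockout 1 to 6 and 127, 141, 125, 114 and 142 CPM in Wild-Type 1 to 5. Its highest libraries, Knockout 3 and 5, were below the median library for Gabarapl1. Gabarap (0.03) and Gabarapl2 (0.20) did not share the pattern of Gabarapl1, and neither did Map1lc3b (0.30). The summed level of the 5 luminal and epithelial markers (Krt8, Krt18, Krt19, Epcam and Cdh1, all detected) was 617, 875, 579.6, 555, 644 and 760.5 CPM in Knockout 1 to 6 and 496, 404, 491, 778 and 431 CPM in Wild-Type 1 to 5. The sum was high in Knockout 2 and Wild-Type 4 and low in Wild-Type 2 and 5, as Gabarapl1 was, but it was not low in Knockout 5, where Gabarapl1 and Sqstm1 were, and not high in Wild-Type 1, where Ulk1 and Atg14 were. The part of the cell make-up of the samples in this pattern was not tested.

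**Figure D4:**
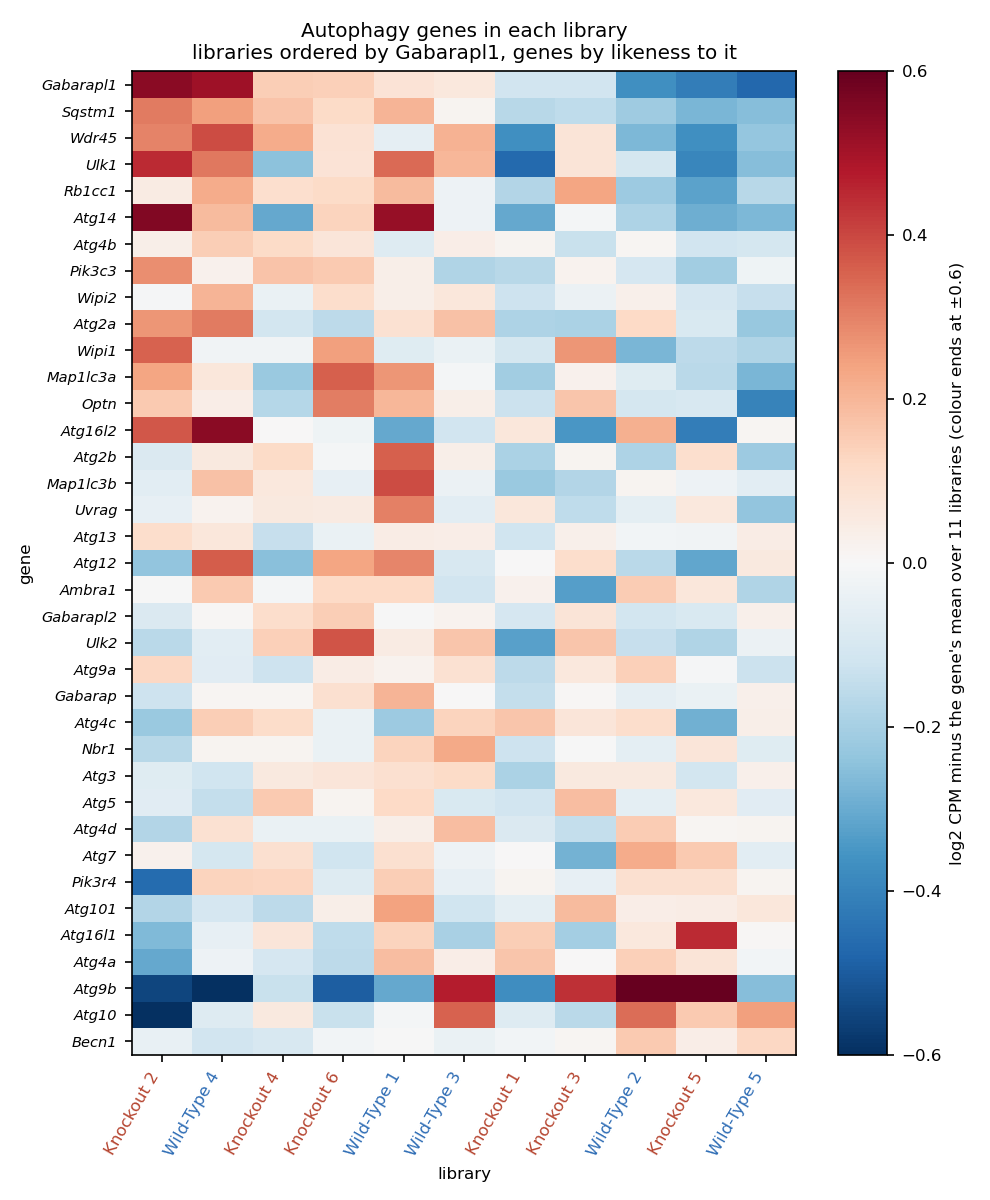
Log2 CPM of each autophagy gene minus its mean over the 11 libraries (colour), with libraries (x axis; red labels Knockout, blue labels Wild-Type) ordered by Gabarapl1 and genes (y axis) by their Pearson correlation with it. Gabarapl1, Sqstm1, Wdr45 and Ulk1 are high in Knockout 2 and Wild-Type 4 and low in Wild-Type 5 and Knockout 5, and the 2 genotypes are interleaved.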

How the data were processed

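RNA from 6 Knockout and 5 Wild-Type glands was made into strand-specific libraries, per the labels' protocols, and quantified with Salmon 1.3.0 on GRCm38.p6, per the submitters' processing notes. Per the file headers, the deposited tables hold estimated counts and TPM per transcript, as the authors' quantifier gave them. The listed lengths match coding lengths within 3 bases for 93.9% of the transcripts matched, so that UTR reads are mostly not counted. The authors also deposited a gene table whose name calls it counts normalized with DESeq2 (version 1.28.1 per the submitters' processing notes), used here as a signal on their scale.

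Estimated counts were summed per gene by transcript identifier (GENCODE M21, 57452 of 58204 transcripts) and rounded. Reads of the 752 others, 0.195% to 0.265% of a library, were left out. Counts were fitted in edgeR 4.0.16 (R 4.3.3; filterByExpr, TMM, robust quasi-likelihood F test, genotype only) with Benjamini-Hochberg adjustment over 12716 genes and a threshold of 0.05, after a check on simulated counts. The alternatives used DESeq2 1.42.0 and limma 3.58.1. Totals of 25817975 to 37894237 reads give each member 24 reads or more per library. Reads without molecular identifiers are not independent molecules. CPM use a TMM-scaled library size, log2 CPM a prior count of 2. Sample titles gave the group and the replicate number.

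Values in every library are given for the 3 members with the smallest unadjusted p in each direction and the most abundant member of each role. From each related list the gene with the smallest p in each direction is named, as is Tsc1. Other genes singled out were chosen after their values were seen. The members and lists were chosen with earlier results of these data known.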

Additional observations from a re-analysis of the deposited data

Results flagged for a closer look

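The CPM of each member and of Tsc1 was screened within each genotype for a library that stands apart by Dixon's criterion at 95%, in 76 groups of values. It found 3, where chance gives 1 in 20, or 3.8. Ambra1 was lowest in Knockout 3, at 12.4 CPM, with the other Knockout libraries at 15.5 to 16.9 CPM. Atg2a was highest in Knockout 2, at 32.2 CPM, with the others at 23.5 to 25.1 CPM. Gabarapl2 was lowest in Wild-Type 2, at 14.1 CPM, with the others at 15.2 to 15.6 CPM. None of these genes passed the threshold between genotypes in edgeR.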

How the results depend on the processing

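None of the 37 members passed the threshold under any of the 21 alternatives, and the lowest adjusted p was 0.161 (Wipi1, library totals only, edgeR). The number of genes past it over all genes was 7. It was 0 with the replicate number as a block (10 libraries, replicate block in edgeR; 1023 at an unadjusted p under 0.05) and 146 in DESeq2 (87 higher and 59 lower). Leaving out 1 library in turn gave 0 to 28 genes, with 0 without Knockout 3 and without Knockout 6 (1478 and 1319 at an unadjusted p under 0.05), 2 without Knockout 1 and without Wild-Type 3, 13 without Wild-Type 1 and without Wild-Type 5, 14 without Wild-Type 4 and 28 without Knockout 2. Same-numbered samples correlated at -0.02, -0.10, 0.19, -0.22 and -0.21, and 1 of the 10 samples, Knockout 3, correlated best with its own number. These few correlations cannot show whether same-numbered samples shared a litter or a batch, which the labels do not name. Levels depended on the length used, with 20.004 for the highest over the median member per kilobase of listed length. Library totals without milk protein genes, the deposited normalized values and listed lengths were chosen after seeing the data.

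The 777 member values under the alternatives were shifted so that the median of all genes equalled that of the main fit (-0.0076). On this scale 696 kept the sign of the main fit and 81 did not, and 18 members kept it throughout. The log2 fold changes below are these shifted values, so that their sign can differ from that of the unshifted estimate. The estimates of the 19 others lay between -0.13 (Atg16l2) and 0.08 (Optn), and the cause of a change of sign was not tested. With the replicate number as a block the log2 fold change was -0.067 (Ulk2), -0.022 (Rb1cc1), 0.059 (Atg9b), -0.062 (Map1lc3a), -0.00876 (Gabarapl2) and -0.023 (Sqstm1). With library totals only, after 0.19 was taken off, the log2 fold change was -0.00896 (Rb1cc1) and -0.00205 (Sqstm1). Without a filter, after 0.0024 was taken off, the log2 fold change was -0.00192 (Rb1cc1) and -0.00201 (Sqstm1). In DESeq2, after 0.0069 was taken off, the log2 fold change was -0.00189 (Rb1cc1) and -0.00167 (Sqstm1). With transcript length offsets the log2 fold change was -0.16 (Rb1cc1), 0.064 (Atg101), 0.082 (Wdr45) and -0.024 (Sqstm1). In limma-voom the log2 fold change was -0.000551 (Rb1cc1). With totals that leave out 7 milk protein genes, after 0.083 was taken off, the log2 fold change was -0.00311 (Rb1cc1) and -0.00238 (Sqstm1). From the deposited normalized values in limma the log2 fold change was -0.17 (Rb1cc1), 0.066 (Atg101), 0.11 (Wdr45) and -0.024 (Sqstm1). Without 1 library in turn they ranged from -0.060 to 0.084 for Ulk2, -0.055 to 0.063 for Rb1cc1, -0.091 to 0.014 for Atg101, -0.22 to 0.059 for Atg14, -0.053 to 0.093 for Uvrag, -0.10 to 0.00676 for Ambra1 and -0.093 to 0.066 for Atg2b. The ranges were -0.062 to 0.00618 for Atg9a, -0.32 to 0.22 for Atg9b, -0.090 to 0.087 for Wdr45, -0.076 to 0.00523 for Atg7, -0.061 to 0.088 for Atg16l1, -0.23 to 0.0033 for Atg16l2 and -0.037 to 0.032 for Atg4b. They were -0.063 to 0.091 for Map1lc3a, -0.064 to 0.21 for Gabarapl1, -0.00906 to 0.045 for Gabarapl2, -0.064 to 0.064 for Sqstm1 and -0.00334 to 0.15 for Optn. Of the 18 members that kept their sign, 13 moved by over 1.5 times without at least 1 library. Atg12 moved to -0.098 without Wild-Type 4. Atg3 moved to -0.037 without Knockout 1 and -0.10 without Wild-Type 4. Atg4a moved to -0.063 without Knockout 2. Atg4c moved to -0.11 without Knockout 1, -0.13 without Wild-Type 1, -0.031 without Knockout 2, -0.044 without Wild-Type 4 and -0.018 without Knockout 5. Atg5 moved to 0.14 without Wild-Type 1 and 0.059 without Knockout 3. Becn1 moved to -0.019 without Wild-Type 2, -0.031 without Knockout 4, -0.083 without Wild-Type 4 and -0.029 without Wild-Type 5. Gabarap moved to -0.025 without Wild-Type 1. Map1lc3b moved to -0.10 without Wild-Type 1. Nbr1 moved to -0.044 without Wild-Type 3. Pik3c3 moved to 0.051 without Knockout 2 and 0.15 without Knockout 5. Pik3r4 moved to -0.045 without Knockout 2. Ulk1 moved to -0.095 without Knockout 1, -0.10 without Wild-Type 1, -0.29 without Knockout 2, -0.10 without Knockout 5 and -0.25 without Wild-Type 5. Wipi2 moved to -0.035 without Wild-Type 4 and -0.13 without Wild-Type 5. Atg9b, Atg10 and Atg12 had under 100 reads in every library.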
